A study of Mus musculus with 6 samples.

Results

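The Trim genes encode tripartite-motif proteins, most of which are E3 ubiquitin ligases. Members were all genes whose symbol begins with Trim and a digit and that had a probe set of their own on the array, meaning a probe set that the platform annotation gives to exactly 1 gene. This gave 59 genes of 19938 named genes in all, each with 1 probe set, so no choice between probe sets was needed. Trim35 had been seen to fall in these samples before the question was put, and the question was whether its relatives fell with it. The values of Trim35 are therefore a description without a test, while the other 58 genes entered by name alone.

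A typical TRIM protein carries a RING domain, which recruits the enzyme that hands over ubiquitin, followed by B-box zinc fingers and a coiled coil through which the protein forms dimers. The part after the coiled coil differs between members and chooses the target, so the family is divided by it. In lymphocytes and other blood cells the family is known for steps of innate immune signalling, for restricting viruses and for silencing chromatin. Trim35, which has a SPRY domain after the coiled coil, was found as Hls5 in a mouse haematopoietic lineage switch, and its human counterpart binds the glycolytic enzyme PKM2.

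Gene expression was measured on 1 Affymetrix array per sample in mouse pre-B cells driven by BCR-ABL1, the fusion kinase of Philadelphia chromosome-positive leukaemia. All 6 samples came from mice of mixed 129SvEv and C57BL/6J background, aged 5 weeks, with both Sox4 alleles floxed (Sox4fl/fl). In 3 samples the cells carried transduced ERT2, the oestrogen receptor's hormone-binding part, and in 3 they carried Cre-ERT2, a recombinase activated by 4OHT (4-hydroxytamoxifen), and RNA was taken 24 h after 4OHT. No group with Cre-ERT2 and unfloxed Sox4 was analysed here, so loss of Sox4 and activity of Cre cannot be told apart, and nothing in the labels says that the samples of a group were separate cultures or animals, so p-values rest on a spread that may be technical.

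Sox4, the deleted transcription factor, read 1459, 1372 and 1237 in the ERT2 arrays and 599, 541 and 499 in the Cre-ERT2 arrays, all on the linear intensity scale used below. Of 12 measured pre-B cell markers, the surrogate light chain gene Igll1 and the receptor chain gene Cd79b had mean intensities of 18846 and 13031 in ERT2 arrays. Il7r, Rag1 and Rag2 fell and Vpreb2 rose among them, and 8 did not pass the test. Of all named genes 8.1% passed it, 4.38% as higher and 3.72% as lower. The T-cell markers had 1 of 7 higher (Cd5), the myeloid markers 1 of 10 higher (Lyz2) and 1 lower (Itgam, a call lost without ERT2 replicate 1 or Cre-ERT2 replicate 2, with limma adjusted p = 0.0574 and 0.0558), and the NK-cell, erythroid, stromal and muscle markers had none past the threshold of 8, 4, 8 and 8. The mean log2 level of the pre-B cell list ran from 12.28 to 12.31 over ERT2 arrays and from 12.01 to 12.06 over Cre-ERT2 arrays. The median log2 difference of Cre-ERT2 minus ERT2 in this list was smaller, -0.0783, with 8 genes below 0 and 4 above. Rag2, Il7r and Rag1 had -1.35, -0.93 and -0.89, while Igll1 and Cd79b had 0.01 and 0.03. The mean log2 level of the myeloid list ran from 7.23 to 7.25 over ERT2 arrays and from 7.31 to 7.38 over Cre-ERT2 arrays. That of the T-cell list ran from 7.06 to 7.13 and from 7.11 to 7.20. Most genes of these 2 lists did not rise. The log2 difference of Cre-ERT2 minus ERT2 was below 0 in 6 of 10 myeloid and 4 of 7 T-cell markers. The list medians were -0.0145 and -0.0035, while Lyz2 had 1.40 and Cd5 had 0.56. The part of such cells in the results on Trim genes was not tested. In RNA from a whole culture, fewer cells of a type and less RNA per cell cannot be told apart. The arrays had median intensities from 273 to 279, and precision is limited by there being 3 arrays in a group.

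Trim35 was the deepest fall of the family. Its probe set (10416082, gene on chromosome 14) read 2358, 2007 and 1765 in the ERT2 arrays and 284, 231 and 221 in the Cre-ERT2 arrays. Every Cre-ERT2 array lay far below every control, although the controls themselves spread widely. The mean went from 2043 ± 298 (SD, n = 3) to 245 ± 34.2 (SD, n = 3), a ratio of 0.12. On the scale of log2(intensity + 1) the difference of Cre-ERT2 minus ERT2 was -3.05, and it lay between -3.16 and -2.94 when single arrays were left out.

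The fall was not general among the relatives. Of the 58 other Trim genes 2 were lower, 4 were higher and 52 did not pass a threshold of 0.05 on the limma p-value adjusted over all probe sets. The 6 called relatives make up 10.3%, beside 8.1% of all named genes called in either direction. By direction, 4.38% of all named genes were higher and 3.72% were lower. The median log2 difference of all 59 Trim genes was 0.02, and that of all named genes was 0.02 as well. The middle part of the family, from the lower to the upper quartile, ran from -0.04 to 0.09, as it did over all named genes. Both the share called and the median of the family thus lay near those of the whole array.

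**Figure D1:**
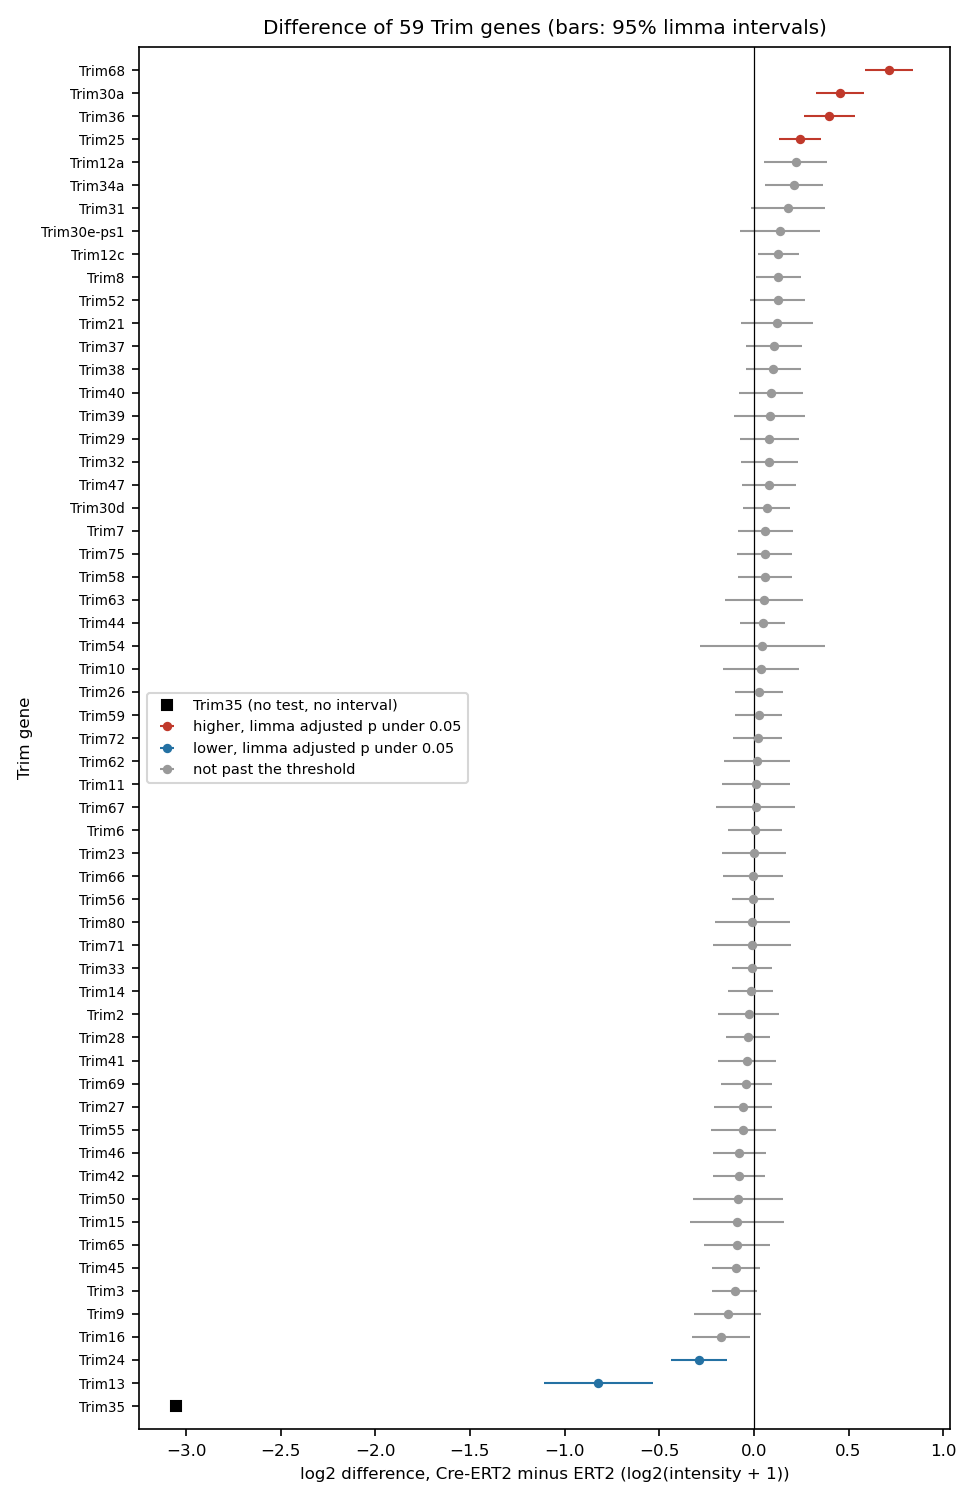
Log2 difference of Cre-ERT2 minus ERT2 (horizontal axis, log2(intensity + 1)) for each of the 59 Trim genes (vertical axis), with 95% intervals from limma for all but Trim35, which is shown without a test. Trim35 stands alone at -3.05, Trim13 follows at -0.82, and 52 genes in grey did not pass the threshold.

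The 52 genes that did not pass had differences between -0.17 and 0.22. Their 95% intervals, from the moderated standard errors and not adjusted for the number of genes, all lay between -0.34 and 0.39 on the log2 scale, and in 36 of them the whole interval lay within 0.25 of no difference. A fall on the scale of that of Trim35 thus lay outside every one of these intervals. Groups did not overlap in 9 higher and 7 lower Trim genes, Trim35 included, where 17.5% and 10.8% of all named genes, together 28.3%, did not overlap either. Over the Trim probe sets, log2 differences between arrays of the same group had SDs from 0.10 to 0.16.

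Trim13 was the next deepest fall. It encodes an E3 ligase anchored in the membrane of the endoplasmic reticulum, and the human gene lies in a region often deleted in chronic lymphocytic leukaemia. Its probe set (10415784, chromosome 14 like Trim35) read 483, 636 and 473 in the ERT2 arrays and 284, 311 and 298 in the Cre-ERT2 arrays. The groups did not overlap, and ERT2 replicate 2 stood above both other controls. The mean was 531 ± 91.6 (SD, n = 3) in controls and 297 ± 13.4 (SD, n = 3) in Cre-ERT2 cells, which is 56.0%. The log2 difference was -0.82 (SE 0.12, limma adjusted p = 0.0102), and -0.68 (limma adjusted p = 0.00343) without ERT2 replicate 2. That was the lowest adjusted p with single arrays left out. The highest was only just past the threshold, without Cre-ERT2 replicate 3 (limma adjusted p = 0.0482). Trim52, the third member on chromosome 14, had a difference of 0.12 and did not pass.

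Trim24, also known as TIF1-alpha, reads histone marks through a PHD finger and a bromodomain and is known to drive the degradation of p53. Its probe set (10537318, chromosome 6) read 2276, 2588 and 2363 in the ERT2 arrays and 1932, 1998 and 1978 in the Cre-ERT2 arrays. All 3 Cre-ERT2 arrays were below the lowest control, by a small step. The log2 difference was -0.29 (SE 0.0612, limma adjusted p = 0.0455), the weakest call in the family. It was lost without any 1 of the 6 arrays (limma adjusted p from 0.0613 to 0.158).

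**Figure D2:**
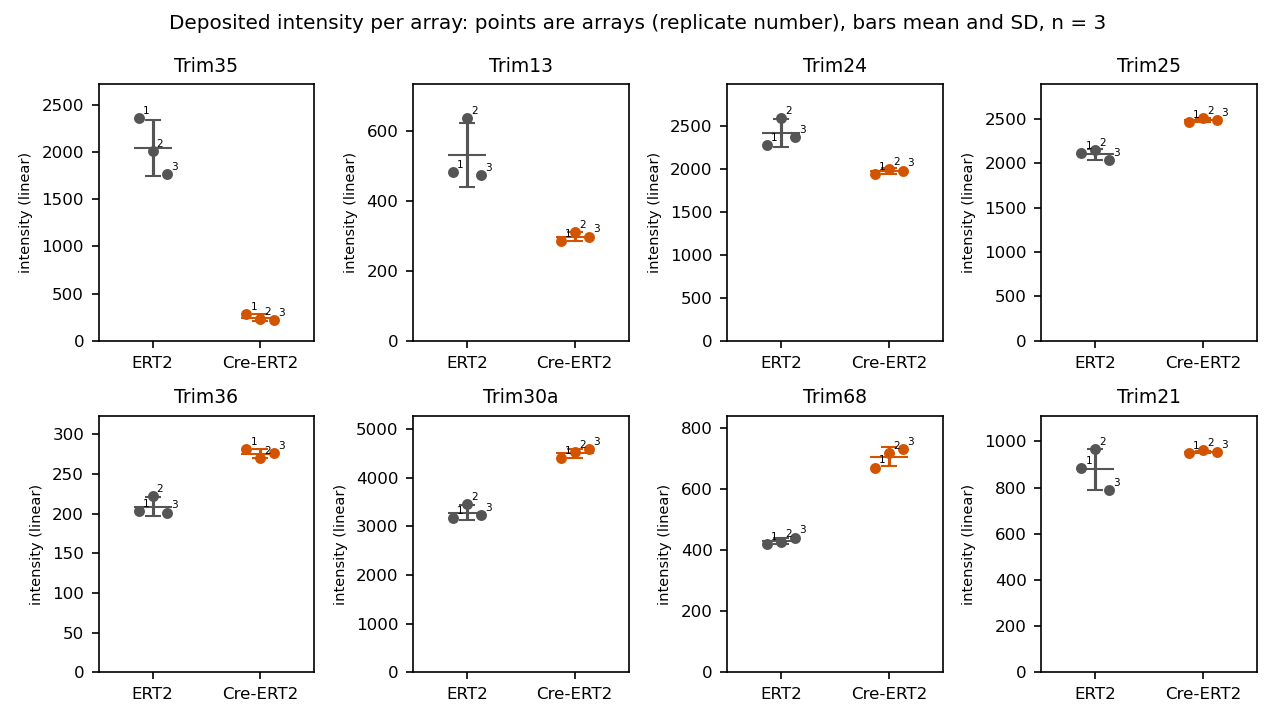
Deposited intensity on a linear axis from 0 for Trim35, the 6 called relatives and Trim21; each point is an array with its replicate number, and bars give the mean and SD of 3 arrays. The groups separate in the first 7 panels and overlap in Trim21.

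The other chromatin-bound members of the class of Trim24 showed little movement. Trim28, the KAP1 corepressor that silences repeats and imprinted loci with KRAB zinc-finger proteins, had means of 6325 ± 198 (SD, n = 3) and 6185 ± 147 (SD, n = 3), a log2 difference of -0.03 (95% interval -0.15 to 0.09). Trim33, which ubiquitinates Smad4 in TGF-beta signalling, had a difference of -0.01 (95% interval -0.12 to 0.10). Trim66 had a difference of 0.00 (95% interval -0.16 to 0.16). In this class 0 of 4 were higher and 1 was lower, beside 4.38% and 3.72% of all named genes.

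Trim68 was the largest rise. It is a SPRY-domain ligase whose human counterpart was described as a cofactor of the androgen receptor, and its gene lies on chromosome 7. Its probe set (10566161) read 421, 429 and 442 in the ERT2 arrays and 671, 720 and 731 in the Cre-ERT2 arrays. The controls were tight and all Cre-ERT2 arrays lay well above them. The mean went from 431 ± 10.5 (SD, n = 3) to 707 ± 31.6 (SD, n = 3), a ratio of 1.64. The log2 difference was 0.71 (SE 0.0537, limma adjusted p = 0.000605). With single arrays left out it ranged from 0.69 to 0.75 and stayed past the threshold each time.

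Trim21, the member next to Trim68 on chromosome 7, is a cytosolic antibody receptor that marks antibody-coated viruses for degradation. It read 884, 965 and 789 in the ERT2 arrays and 949, 961 and 952 in the Cre-ERT2 arrays. Its groups overlapped, and its difference of 0.12 (95% interval -0.07 to 0.31) did not pass. The difference between Trim68 and Trim21 was not tested.

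Trim30a was second among the rises. In mouse it is an interferon-inducible protein that dampens NF-kB signalling through Tab2 and Tab3. Its probe set (10566358, chromosome 7) read 3174, 3446 and 3221 in the ERT2 arrays and 4391, 4524 and 4576 in the Cre-ERT2 arrays. The groups were far apart relative to the spread inside each. The mean went from 3281 ± 145 (SD, n = 3) to 4497 ± 95.9 (SD, n = 3), with a log2 difference of 0.46 (SE 0.0526, limma adjusted p = 0.00386). The call held without any 1 array, with differences from 0.43 to 0.49. Tab2 and Tab3 themselves had differences of -0.11 and -0.03, and neither passed.

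Trim36 and Trim25 were the remaining rises. Trim36, a microtubule-binding member of the COS-box class known from sperm and cell division, read 203, 222 and 201 in the ERT2 arrays and 281, 270 and 277 in the Cre-ERT2 arrays. The groups did not overlap on this dim probe set (10458767, chromosome 18). Its log2 difference was 0.40 (SE 0.0563, limma adjusted p = 0.00884), and without Cre-ERT2 replicate 3 the call was lost (limma adjusted p = 0.052).

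Trim25, which activates the viral RNA sensor RIG-I by adding ubiquitin chains, read 2116, 2148 and 2031 in the ERT2 arrays and 2460, 2507 and 2485 in the Cre-ERT2 arrays. Both groups were tight and did not overlap (probe set 10380260, chromosome 11). The log2 difference was 0.24 (SE 0.0464, limma adjusted p = 0.0302). The call was kept without ERT2 replicate 2 (limma adjusted p = 0.0439) and lost without any 1 of the other arrays (0.0788 to 0.136). The number of higher members was thus 2 without Cre-ERT2 replicate 3, Trim68 and Trim30a, against 4 with all arrays.

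**Figure D3:**
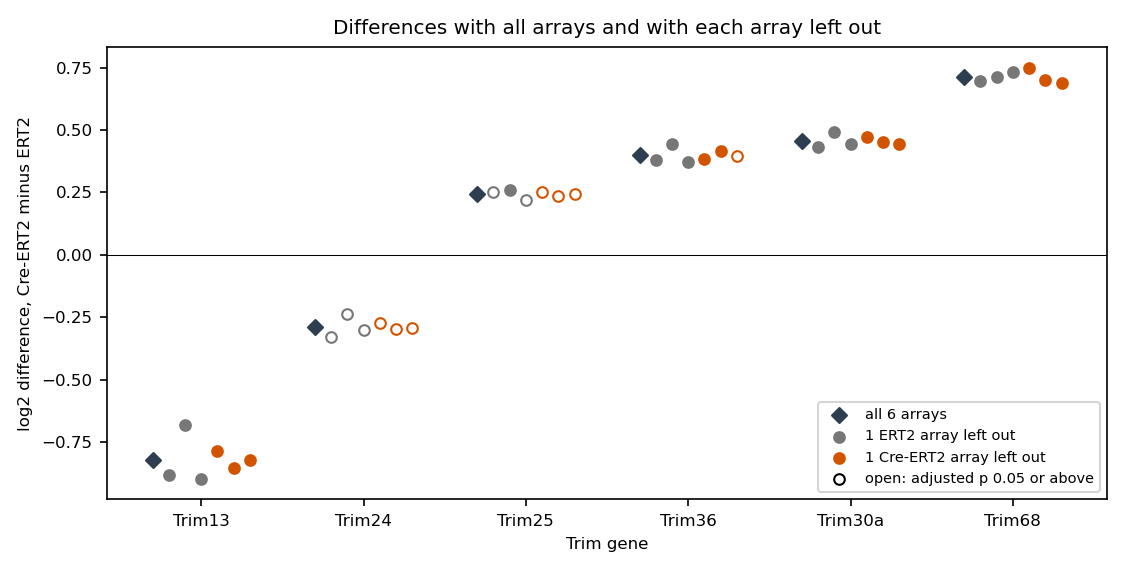
Log2 difference of Cre-ERT2 minus ERT2 (vertical axis) for the 6 called relatives of Trim35 (horizontal axis) with all 6 arrays (diamond) and with each array left out (circles); open symbols had a limma adjusted p of 0.05 or above. Trim13, Trim30a and Trim68 keep filled symbols throughout, Trim24 has open circles for every array left out.

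Sorted by the domain after the coiled coil, the SPRY class, to which Trim35 belongs, held no other called fall. COS-box members were counted as a class of their own, whatever further domains they carry. Outside the Trim5 gene cluster the SPRY class had 23 members, of which Trim68 and Trim25 were higher and Trim35 was lower. Without Trim35, 9.09% of the class was called, beside 8.1% of all named genes. Its median log2 difference was then 0.02. The lowest value was that of Trim16, a B-box protein without a RING domain, at -0.17 (SE 0.0633, limma adjusted p = 0.224). Trim16 read 461, 512 and 488 in the ERT2 arrays and 453, 433 and 409 in the Cre-ERT2 arrays, which did not overlap.

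The cluster of Trim5-type genes on chromosome 7, which holds many of the antiviral and interferon-inducible members, had 6 measured genes. Of these 1 was higher (Trim30a) and 0 were lower, which is 16.7% beside 8.1% of all named genes called in either direction. In 6 genes, 1 call is too few to set the cluster apart from the array. The median difference was 0.17, beside 0.02 over all named genes. Trim12a had a difference of 0.22 (SE 0.0702, limma adjusted p = 0.164), Trim34a of 0.21 (SE 0.0633, limma adjusted p = 0.139) and Trim12c of 0.13 (SE 0.0449, limma adjusted p = 0.2). In these 3 and in Trim30a all Cre-ERT2 arrays read above all controls, as they did in 17.5% of all named genes. Trim34a passed with estimated array weights (difference 0.29, limma adjusted p = 0.0218). Trim30d had 0.07 and Trim6 had 0.00, and Trim6 changed sign under array weights, cyclic loess, median centring or repeated quantile normalization, and without Cre-ERT2 replicate 3 (-0.03) or ERT2 replicate 3 (-0.02). The pseudogene Trim30e-ps1 next to Trim30d had 0.14. Genes of this cluster are close copies of each other, so their probe sets may share signal, and the probe sequences were not used here.

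Letters known from interferon-stimulated response elements, GAAA and GAAA again after any 2 bases (on the other strand TTTC, any 2 bases, TTTC), were searched in promoter windows of 250 bases before to 50 after each RefSeq gene start (GRCm38.p6). This motif was added after the values had been seen. It was present in 3.44% of 32851 windows of all genes and in 9 of 60 windows of Trim genes, which cover 46 of the 59 members. These 9 are shown because 7 of them lie in the chromosome 7 stretch from Trim21 to Trim30d, 5′ to 3′ in the direction of the gene, with the motif in capitals and 30 bases each.
Trim30a (chr7:104465210-104465239, minus strand): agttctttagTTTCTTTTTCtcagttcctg
Trim30a, second start (chr7:104446104-104446133, minus strand): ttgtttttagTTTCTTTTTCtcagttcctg
Trim30d (chr7:104507871-104507900, minus strand): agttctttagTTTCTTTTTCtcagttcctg
Trim12a (chr7:104315466-104315495, minus strand): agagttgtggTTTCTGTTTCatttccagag
Trim12c (chr7:104353359-104353388, minus strand): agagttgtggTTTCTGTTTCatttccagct
Trim34a (chr7:104244457-104244486, plus strand): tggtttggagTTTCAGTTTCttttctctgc
Trim21 (chr7:102565447-102565476, minus strand): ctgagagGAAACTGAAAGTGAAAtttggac
Trim26 (chr17:36836979-36837008, plus strand): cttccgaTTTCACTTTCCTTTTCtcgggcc
Trim2 (chr3:84212791-84212820, minus strand): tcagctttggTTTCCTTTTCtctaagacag
The stretch is the same in Trim30d and the first start of Trim30a, and the motif and the 10 bases before it are the same in Trim12a and Trim12c. Trim21 and Trim26 each hold 2 overlapping copies.

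The 8 genes with the motif had a median log2 difference of 0.13, from -0.03 in Trim2 to 0.46 in Trim30a, and 1 of them was called. Trim30a, Trim30d, Trim12a, Trim12c and Trim34a among them belong to the cluster described above, so this median largely repeats that of the cluster. Outside the cluster, Trim2, Trim26 and Trim21 had -0.03, 0.03 and 0.12, and none passed. The 38 members with a window and no motif had a median of 0.02, and Trim68 and Trim25, both called higher, were among them. Of the interferon-stimulated list 2 of 19 were higher and 0 lower, which is 10.5% beside 8.1% of all named genes. Mean intensities in the list ran from 49.1 (Mx1) to 1111 (Stat2) over the 6 arrays, whose medians were 273 to 279. Whether its dim probe sets were above background is unknown here. The list had a median of 0.04, with 11 differences above 0 and 8 below. Ifit2, Ddx58 and Ifih1 were among those below, at -0.17, -0.14 and -0.13, and did not pass. Usp18, which removes ISG15 from proteins, rose by 0.51 (SE 0.0641, limma adjusted p = 0.00529), and Xaf1, an interferon-induced apoptosis factor, rose by 0.34 (SE 0.0716, limma adjusted p = 0.0442), a call lost without any 1 array (0.0658 to 0.154) and with median centring (0.0551). Zbp1, a sensor of left-handed nucleic acids, had a difference of 0.29 (limma adjusted p = 0.0631). Irf7, a master regulator of the interferon response and a target of human TRIM35, had -0.01.

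Letters of the kind bound by Sox and Lef factors were searched in the same windows. The letters ACAAAG, which read as CTTTGT on the other strand, were in 9 of 60 Trim windows beside 18.7% of all windows. The letters AACAAT, or ATTGTT on the other strand, were in 4 of 60 beside 10.7%. Among members with a window, the called falls Trim13 and Trim24 held ACAAAG, and their stretches are shown in the direction of the gene with the motif in capitals.
Trim13 (chr14:61598224-61598253, plus strand): aggcccccactcCTTTGTtttttggccttt
Trim24 (chr6:37900247-37900276, plus strand): agatatgtgCTTTGTACAAAGggagttgtt
In Trim24 the motif stands once on each strand, directly one after the other, at the second of its starts. In Trim13 the motif begins after the start, at position 11, and the window of its other start held none. The other 6 members with ACAAAG (Trim7, Trim31, Trim40, Trim46, Trim63 and Trim75) did not pass the test. The 8 members with ACAAAG had a median log2 difference of 0.05, and the 38 with a window but without it had 0.03. Trim35 was not among the 46 members with a window.

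The remaining classes were small and had few calls. In the COS-box class 12.5% were called and among members with other domains 20.0%, beside 8.1% of all named genes. Of the 8 COS-box members Trim36 was higher and 0 were lower, and Trim54, Trim55 and Trim63, ligases of the muscle sarcomere, had differences of 0.04, -0.06 and 0.05. Among the 4 NHL-repeat members, Trim2, Trim3, Trim32 and the stem-cell regulator Trim71, 0 were called, with differences from -0.10 to 0.08. None of the 7 members without a recognised domain after the coiled coil was called, and their median was 0.09. Trim31, which ubiquitinates the antiviral adaptor Mavs, had the largest difference there, 0.18 (SE 0.0812, limma adjusted p = 0.339). Of the 5 members with other domains Trim13 was lower. The brightest probe sets of the family over all 6 arrays were those of Trim28, Trim30a and Trim37 with mean intensities of 6255, 3889 and 3681, and the dimmest were those of Trim30e-ps1, Trim30d and Trim38 with 56.1, 65.7 and 76.4, a brightness that depends on the probes as well as on the RNA.

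**Figure D4:**
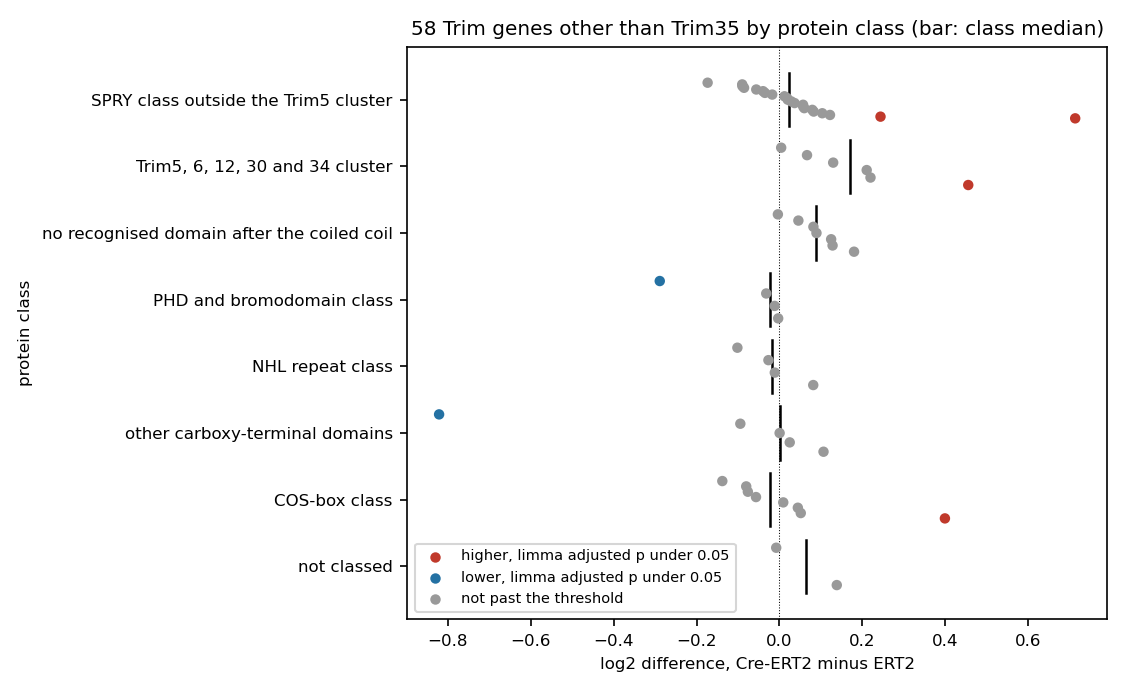
Log2 difference of Cre-ERT2 minus ERT2 (horizontal axis) for the 58 Trim genes other than Trim35, grouped by protein class (vertical axis); the bar is the class median and colours give the limma call. Class medians run from -0.02 to 0.17, and the 2 lower genes, Trim13 and Trim24, lie in different classes.

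Of 4 Trim genes known by other symbols, Mid1 (also called Trim18), a microtubule-bound ligase that targets protein phosphatase 2A, rose by 0.71 (SE 0.0629, limma adjusted p = 0.00121), from 1722 ± 91.9 (SD, n = 3) to 2816 ± 133 (SD, n = 3). Pml (Trim19), the organiser of PML nuclear bodies, had a difference of 0.08, Mefv (Trim20), the pyrin sensor, 0.08 and Mid2 (Trim1) -0.03, and none of these passed.

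None of the 6 measured genes nearest to Trim35 was called lower, where 3.72% of all named genes were. At that share 6 genes are too few to say whether the surroundings of Trim35 differ from the array. On one side lie Ptk2b, Chrna2 and Ephx2 and on the other Stmn4, Dpysl2 and Gm5464. Ptk2b, the focal adhesion-related kinase Pyk2, rose by 0.26 (SE 0.0531, limma adjusted p = 0.0381), a call lost without any 1 array (0.072 to 0.141) and with median centring (0.0539). The other 5 had differences from -0.08 to 0.19 and did not pass, and the lowest bound of their 95% intervals was -0.34, in Ephx2.

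Of 14 measured genes of ubiquitin and of the E1 and E2 enzymes that work with TRIM ligases, 1 was called, as lower. This is 7.14%, near the 8.1% of all named genes called in either direction. Ube2e3, an E2 enzyme, fell by 0.64 (SE 0.0489, limma adjusted p = 0.000654), from 1670 ± 39.7 (SD, n = 3) to 1073 ± 32.3 (SD, n = 3). Ube2d1, an E2 widely used by RING ligases, had a difference of -0.21 (limma adjusted p = 0.0531) and Ube2v2 of 0.19 (limma adjusted p = 0.118). Of 17 known partners and substrates 1 was higher and 0 lower, which is 5.88% beside the same 8.1%. Sting1, the DNA-sensing adaptor ubiquitinated by TRIM proteins, rose by 0.29 (SE 0.0486, limma adjusted p = 0.0184), a call lost without any 1 of the Cre-ERT2 arrays or ERT2 replicate 1 (0.0561 to 0.0856). Irf8, Traf6 and Mavs had differences of 0.19, -0.14 and 0.17 and did not pass, and Pkm, the partner of human TRIM35, had -0.08 (limma adjusted p = 0.457). For comparison, of 55 Usp deubiquitinase genes 3 were higher and 6 lower, which is 16.4%, beside 8.1% of all named genes.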

How the data were processed

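The authors' values came from RMA (background correction, quantile normalization, summary of probes), per the submitters' processing notes, and were deposited as 1 intensity per probe set and array on a linear scale. For that step, annotation and genome build were not given in the sources used here. Intensities were taken as log2(intensity + 1) for all 35556 probe sets, including 1621 with several genes and 12146 with none. Of these, 6 carry a Trim symbol beside other genes and were not used for members; 1 of the 6 was called, as higher. All 6 samples entered 1 limma fit without covariates (lmFit, eBayes; limma 3.58.1, R 4.3.3). P-values were adjusted by the Benjamini-Hochberg method across the whole array, and the fit was tested on simulated data. Groups came from the labels. Same-numbered samples of the 2 groups did not all deviate together (correlations 0.205, 0.344 and -0.049). Differently numbered samples had correlations from -0.43 to 0.325. These values do not settle whether the numbers mark pairs, and the main fit did not use them as pairs. Members, classes and lists were chosen with earlier results of these data known, and lists are described by counts and medians without a set test. List members were matched by symbol or older symbol. Named were Trim35, all called Trim genes, the 5 largest differences that did not pass, the 3 brightest and 3 dimmest probe sets, the 3 nearest genes on each side of Trim35 and up to 3 genes per list with the smallest p; others were chosen after their values were seen. A planned ranking by protein likeness to Trim35 was not made, as protein sequences were not used here. Gene positions and promoter windows are RefSeq's (GRCm38.p6). Alternatives changed the variance moderation, features, normalization, array weights, pseudocount, probe-set summary, a replicate block or the arrays used.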

Additional observations from a re-analysis of the deposited data

How the results depend on the processing

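With single arrays left out, 2 to 4 Trim genes were higher, and the 2 lower each time were Trim35, which is not tested here, and 1 relative, Trim13, while over all named genes 462 to 922 were higher and 483 to 652 lower. The median difference of the Trim genes stayed between 0.002 and 0.031 there and was -0.0066 under cyclic loess, where the median of all named genes was -0.0027. Over all named genes, 1598 were higher and 1150 lower with estimated array weights (873 and 742 otherwise), and 1371 were higher when the fit held probe sets with 1 gene alone; the causes were not tested. With the replicate number as a block, 3 Trim genes were higher and, beside Trim35, 1 relative was lower (Trim13, limma adjusted p = 0.0137), as Trim24 (-0.29, limma adjusted p = 0.0651) and Trim25 (0.24, limma adjusted p = 0.0758) no longer passed, nor did the neighbour Ptk2b (0.26, limma adjusted p = 0.0681); with 3 arrays a group this fit leaves fewer degrees of freedom. No value named for a Trim gene past the threshold changed sign under any alternative. RMA values carry no detection calls, so whether the dim probe sets were above background is unknown here.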
